A study of Mus musculus with 7 samples.

Results

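The globin genes of the mouse were followed through leukemic progression in B-cell precursor (BCP) cells of Eμ-Ret mice. They were taken by name: the adult alpha genes Hba-a1 and Hba-a2, the adult beta genes Hbb-b1, Hbb-b2 and Hbb-bt, the embryonic genes Hba-x, Hbb-y and Hbb-bh1, and Ahsp, which encodes a chaperone of free alpha globin. Of these 9 names, 7 were found among the 24341 genes of the expression table, and Hbb-b2 and Ahsp are not analysed here. Hba-a1, Hba-a2, Hbb-b1 and Hbb-bt passed the filter on low values, a sum of at least 10 FPKM over the 7 samples, and are among the 10541 genes tested. Hba-x, Hbb-y and Hbb-bh1 are listed but stayed below it.

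Hemoglobin of adult red cells is made of alpha and beta chains that are needed in equal number, together with heme. The alpha genes and the beta genes lie in separate clusters on different chromosomes, and each cluster is switched on late in red cell differentiation by a distant enhancer region bound by Gata1, Tal1 and Klf1. Maturing red cells fill with globin mRNA, and the mouse spleen is itself a site of red cell production, in contrast to B-cell precursors, for which globin is not a known product.

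RNA was sequenced as stranded mRNA libraries from BCP cells of the spleen, which the labels give as sorted by flow cytometry in both groups. The study describes its sorting gate for preleukemic cells, and for cultures it describes leukemic spleen cells mostly used without enrichment. It reports a routine purity for that gate and a usual share of leukemic cells in those spleens. The purity of these 7 samples themselves is not given in the sources used here. The preleukemic group held 4 samples of young mice without disease, and the leukemic group held 3 samples of mice with overt disease, described by the study as moribund and older; no age is given for single samples. All 7 came from Emu-Ret hemizygote mice on a BALB/c background, which carry an oncogenic Ret fusion transgene driven by the immunoglobulin heavy chain enhancer, so that preleukemic cells carry it too. The BCP phenotype rests on intermediate B220 and CD43 and high BP-1 on the cell surface. FPKM divide the fragments of a gene by its transcript length and by the depth of the sample, so levels may be compared between genes per length. The low values of each sample stepped in whole fragments and gave a depth of 13.4 to 16.4 in units of 1000000 fragments. The labels do not say that the samples of a group came from separate mice, and p-values measure the spread between these samples.

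The label of the cells was compared with marker genes. All 16 genes of a B-cell precursor list were listed above the low-value filter, and their summed level was 4446 to 6977 FPKM in leukemic and 8501 to 10669 FPKM in preleukemic samples. Of these, 0 rose and 4 fell, among them the surrogate light chain gene Igll1, and the falls numbered 9 with quantile normalization, 13 with each sample rescaled to 1000000 and between 1 and 8 without 1 sample (8 without leukemic replicate 2, 2 without preleukemic replicate 2, and 1 without preleukemic replicate 3 or 4). Enpep, the gene of the sorting antigen BP-1, was at 19.1, 102 and 77.2 FPKM in the leukemic samples and at 134 to 210 FPKM in the preleukemic samples, without overlap (log2 fold change -1.70, adjusted p = 0.0688). It passed the test without leukemic replicate 1 (-0.98, adjusted p = 0.0247), without leukemic replicate 2 (-2.16, adjusted p = 0.0370) and under either rescaling of the samples (adjusted p of 0.0343 and 0.0420). It was chosen after its values were seen, because the cells were sorted on it. In bulk RNA, a change in the number of cells of a type and a change in RNA per cell cannot be told apart.

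Adult globin promoters are shown because they share motifs that the promoters of the embryonic genes Hba-x and Hbb-y hold only in part. The promoter of Hbb-bh1 was not examined. The 110 bases before the RefSeq transcription start are given on the gene's own strand, build GRCm38.p6, with the CACCC box, the CCAAT box, the GATA motif and the TATAA box in capitals wherever these letters occur on either strand. CCAAT on the opposite strand reads ATTGG. Hba-a1 is at chr11:32283562-32283671 (plus strand), Hba-a2 at chr11:32296382-32296491 (plus strand), Hbb-bs at chr7:103827929-103828038 (minus strand), Hbb-bt at chr7:103813924-103814033 (minus strand) and the embryonic Hba-x at chr11:32276490-32276599 (plus strand).
Hba-a1: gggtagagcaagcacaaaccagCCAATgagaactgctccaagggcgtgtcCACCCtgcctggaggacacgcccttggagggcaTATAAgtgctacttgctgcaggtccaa
Hba-a2: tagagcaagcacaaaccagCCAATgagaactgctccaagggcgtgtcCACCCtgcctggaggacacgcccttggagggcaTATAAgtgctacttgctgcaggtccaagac
Hbb-bs: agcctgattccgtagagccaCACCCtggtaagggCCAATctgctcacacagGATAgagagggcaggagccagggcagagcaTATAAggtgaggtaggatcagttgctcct
Hbb-bt: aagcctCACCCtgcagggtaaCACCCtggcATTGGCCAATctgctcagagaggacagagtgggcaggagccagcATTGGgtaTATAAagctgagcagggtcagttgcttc
Hba-x: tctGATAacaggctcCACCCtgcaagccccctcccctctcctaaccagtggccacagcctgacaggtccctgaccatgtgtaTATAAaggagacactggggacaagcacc

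The CACCC box, the CCAAT box and the TATAA box occurred together in the 4 adult promoters and in 0.554% of 32851 RefSeq promoters of the same length. Singly, CACCC was found in 29.6%, CCAAT in 20.2%, GATA in 27.3% and TATAA in 10.9% of them. In Hbb-bt, ATTGG and CCAAT adjoin each other, so that the same stretch holds CCAAT on both strands. Hba-x had no CCAAT in this window and Hbb-y had CCAAT alone. A match is a description of the letters and was not tested as a binding site.

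The copies within each adult cluster are nearly the same in their coding sequence, which bears on how reads are shared between them. The GENCODE coding sequences of Hba-a1 and Hba-a2 differ at 1 of 429 bases (C381T, counted from the A of the start codon), and those of Hbb-bs and Hbb-bt at 1 of 444 bases (C417T). These differences stand in capitals below, within 41 bases of the coding strand.
Hba-a1: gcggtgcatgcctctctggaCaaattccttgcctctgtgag
Hba-a2: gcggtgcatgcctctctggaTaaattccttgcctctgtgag
Hbb-bs: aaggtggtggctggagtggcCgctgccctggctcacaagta
Hbb-bt: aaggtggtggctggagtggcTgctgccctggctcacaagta

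Of the windows of 75 bases in the Hba-a1 transcript, 62.2% also occur in Hba-a2, and of those in Hbb-bs, 64.3% occur in Hbb-bt. Adult and embryonic genes shared no such window: Hba-a1 and Hba-x are 62.0% identical over the coding sequence, and Hbb-bs and Hbb-y are 74.3% identical. The split of fragments within a pair of adult copies is therefore uncertain, and sums over a pair are given beside single genes. The table places Hba-a2 at the position of Hba-a1 (chr11:32283672-32284493), although RefSeq annotates it elsewhere in the cluster. It places Hbb-b1 at chr7:103826523-103827929, where RefSeq annotates Hbb-bs, and lists Hbb-bs itself at 0.01 FPKM, the lowest value in the table, in all 7 samples. BALB/c mice carry other adult beta alleles than the C57BL/6 reference, and which allele gave the fragments of each entry was not tested.

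Adult alpha globin RNA was higher in every leukemic sample than in any preleukemic sample. Hba-a1, the more abundant alpha entry, was at 844, 4013 and 1983 FPKM in leukemic replicates 1 to 3 and at 401, 26.8, 38.2 and 33.9 FPKM in preleukemic replicates 1 to 4. The leukemic mean of 2280 ± 1605 FPKM (SD, n = 3) stood 18.3 times above the preleukemic mean of 125 ± 184 FPKM (SD, n = 4). On log2(FPKM + 1), Hba-a1 rose by 4.92 ± 0.99 (SE, adjusted p = 0.0224). Leukemic replicate 2 was highest, and preleukemic replicate 1 stood 12.2 times above the mean of the other preleukemic samples.

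Hba-a2 was at 122, 699.6 and 339 FPKM in the leukemic samples and at 69.0, 5.49, 0.0349 and 7.98 FPKM in the preleukemic samples. It rose by 5.26 ± 1.31 on the same scale (SE, adjusted p = 0.0393), also without overlap. The value of preleukemic replicate 3 amounts to less than 1 fragment, while Hba-a1 in that sample was at the level of its neighbours. Summed over both alpha copies, the rise was 4.94 ± 0.99 (adjusted p = 0.0225).

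Adult beta globin RNA rose in the same samples. Hbb-b1, the gene with the highest level of all members in each sample, was at 3293, 17338 and 8070 FPKM in leukemic replicates 1 to 3 and at 1577, 129, 143 and 168 FPKM in preleukemic replicates 1 to 4. Its means were 9567 ± 7141 FPKM (SD, n = 3) and 505 ± 715 FPKM (SD, n = 4), a ratio of 19.0. It rose by 4.86 ± 0.96 on the log2 scale (SE, adjusted p = 0.0218).

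Hbb-bt, the minor adult beta entry, was at 308, 1717 and 717 FPKM in the leukemic samples and at 213, 12.8, 19.8 and 18.4 FPKM in the preleukemic samples. The rise was 4.46 ± 1.01 (SE, adjusted p = 0.0304), and the lowest leukemic sample stood 1.44 times above the highest preleukemic sample, the narrowest gap among the 4 genes. Summed over both beta copies, the rise was 4.83 ± 0.97 (adjusted p = 0.0225).

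All 4 adult globins that could be tested were thus called higher, against 8.47% of all genes tested (14.7% were called in either direction), and none overlapped between the groups, where all leukemic values lay above all preleukemic values in 14.9% of all genes tested. By the size of the rise they ranked 4 (Hba-a2), 8 (Hba-a1), 10 (Hbb-b1) and 14 (Hbb-bt) of the 10541 genes. The calls rested on few samples: without preleukemic replicate 2, 3 or 4, 0 of 4 passed (adjusted p between 0.0629 and 0.107), and without leukemic replicate 2 or 3, Hba-a1 and Hbb-b1 passed. Calls fell over all genes tested as well. Without preleukemic replicate 2, 295 of the 10541 genes were called higher, against 893 with all samples. With no filter on low values, 0 of 4 passed (adjusted p between 0.0817 and 0.127), where 1.76% of 24341 genes were called higher. Without preleukemic replicate 1, the outlying sample of its group, all 4 passed, with log2 fold changes of 5.81 (Hba-a1), 6.30 (Hba-a2), 5.72 (Hbb-b1) and 5.35 (Hbb-bt).

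**Figure D1:**
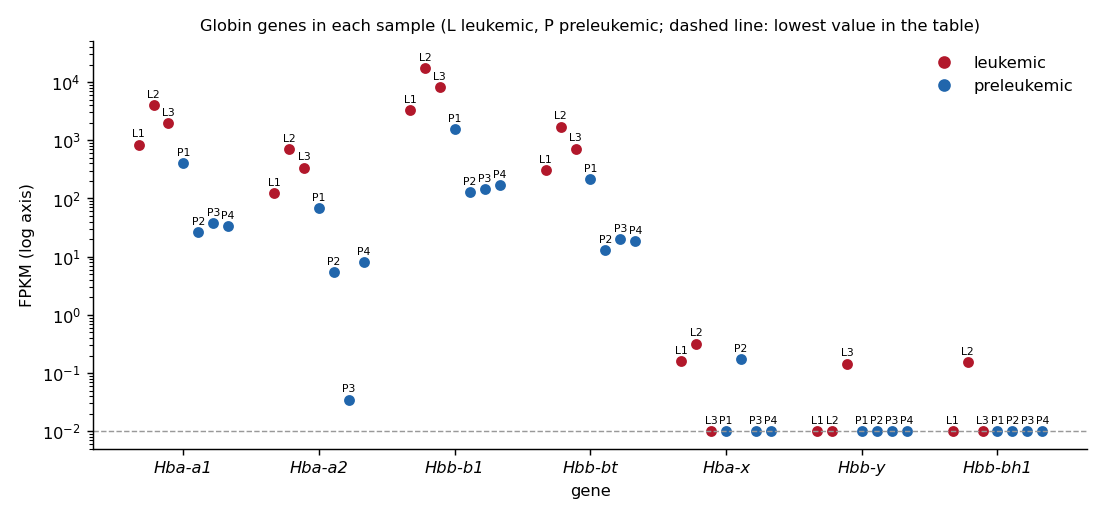
FPKM on a log axis of the 7 listed globin genes in each sample, with leukemic samples (L1 to L3) in red and preleukemic samples (P1 to P4) in blue; each point is 1 sample and the dashed line is the lowest value in the table, 0.01 FPKM. The adult genes fall in the order L2, L3, L1, P1 and then the other preleukemic samples, while the embryonic genes stay at or below 0.320 FPKM.

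The embryonic globins were at the level of single fragments. In a transcript of 500 effective bases, 1 fragment was worth 0.122 to 0.149 FPKM. Hba-x, the embryonic zeta-like alpha gene, was at 0.159 and 0.320 FPKM in leukemic replicates 1 and 2 and at 0.172 FPKM in preleukemic replicate 2, and at the lowest value in the other 4 samples. Hbb-y was above it only in leukemic replicate 3 (0.146 FPKM), and Hbb-bh1 only in leukemic replicate 2 (0.156 FPKM). A difference between the groups was not detectable at this depth for these 3 genes.

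Among other members of the globin family, 7 of 8 names were listed and Hbq1b, a theta-like gene of the alpha cluster, passed the filter, through its leukemic values alone. It was at 3.17, 15.8 and 10.8 FPKM in the leukemic samples and at 2.10, 0.250, 0.134 and 0.01 FPKM in the preleukemic samples, and rose by 2.69 ± 0.57 (SE, adjusted p = 0.0249), a call lost without leukemic replicate 3 and without preleukemic replicate 2, 3 or 4. Its neighbour Hbq1a reached at most 0.475 FPKM and Hbb-bh2 0.534 FPKM, both in leukemic replicate 2. Cygb, the gene of cytoglobin, stayed at or below 0.174 FPKM in all samples. Mb, the gene of the muscle oxygen store myoglobin, was at 7.40 FPKM in preleukemic replicate 2 and at or below 0.286 FPKM in the others, and Ngb, the gene of neuroglobin, was highest in the same sample (1.35 FPKM). These genes below the filter were not tested.

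The balance of alpha to beta RNA was compared within samples, since a ratio is not scaled by how much globin RNA a sample holds. The summed adult globins ran from 174 FPKM in preleukemic replicate 2 to 23767 FPKM in leukemic replicate 2, a range of 137-fold. Over the same samples the ratio of adult alpha to adult beta FPKM was 0.268, 0.247 and 0.264 in leukemic replicates 1 to 3 and 0.262, 0.228, 0.235 and 0.224 in preleukemic replicates 1 to 4, a range of 1.20-fold. Preleukemic replicate 1 lay among the leukemic samples, and the groups overlapped. Preleukemic replicates 2 to 4, which held the least globin RNA, had the lowest ratios (0.224 to 0.235). Whether the ratio varies with the globin level was not tested. The leukemic ratio was 1.10 times the preleukemic one (log2 difference 0.13, two-sided exact permutation test over 35 labelings, p = 0.114, adjusted over the 5 ratios and shares 0.143), where the smallest p that this design allows is 0.0286.

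The split within each chain was less even. Hbb-bt to Hbb-b1 was 0.0934, 0.0990 and 0.0889 in the leukemic samples and 0.135, 0.0990, 0.139 and 0.109 in the preleukemic samples. The leukemic ratio was 0.785 times the preleukemic one, and leukemic replicate 2 and preleukemic replicate 2 differed by less than the digits shown, so that the groups overlapped (exact permutation test, p = 0.0857, adjusted 0.143). This ratio was added after Hbb-b2 to Hbb-b1 could not be computed.

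Hba-a2 to Hba-a1 was 0.145, 0.174 and 0.171 in the leukemic samples and 0.172, 0.205, 0.000913 and 0.236 in the preleukemic samples (exact permutation test, p = 0.971, adjusted 0.971). The leukemic samples lay within the span of the preleukemic samples. The log2 difference of 1.63 was set by preleukemic replicate 3, and without it the direction turned (-0.32).

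**Figure D2:**
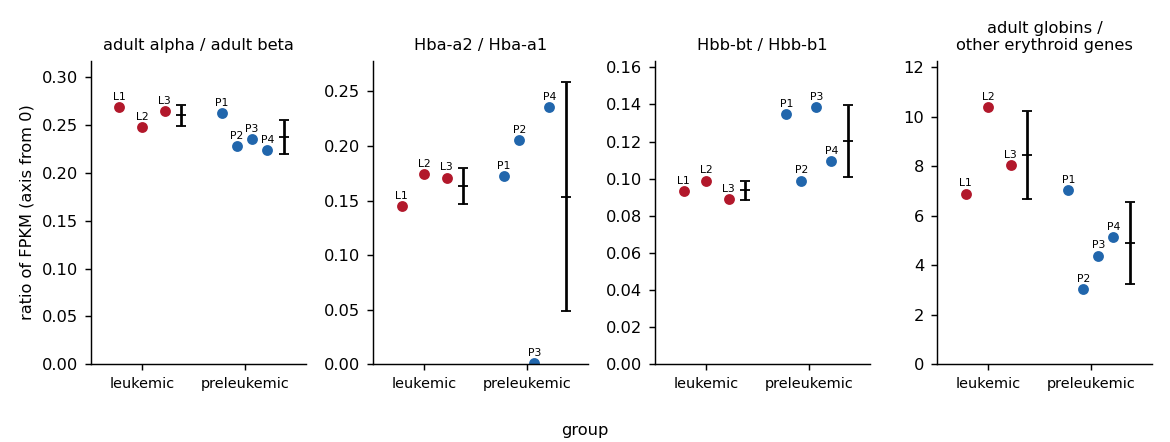
Ratios of FPKM within each sample, on axes from 0, for adult alpha to adult beta, Hba-a2 to Hba-a1, Hbb-bt to Hbb-b1, and adult globins to 14 other erythroid genes; points are samples (L leukemic, P preleukemic) and black bars are the mean ± SD of each group. Alpha to beta stays between 0.224 and 0.268, whereas Hba-a2 to Hba-a1 drops to 0.000913 in P3.

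As a share of all FPKM in a sample, the listed members held 0.896%, 4.40% and 2.19% in leukemic replicates 1 to 3 and 0.491%, 0.0389%, 0.0427% and 0.0486% in preleukemic replicates 1 to 4. All leukemic samples were above all preleukemic samples, and the means differed by 2.34 percentage points. The two-sided exact permutation test gave p = 0.0286, the smallest it can give, and 0.143 after adjustment over the 5 ratios and shares. With this smallest p, 1 measure alone could not pass after the adjustment.

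Globin RNA was then set against the RNA of 14 other genes whose use is largely in red cells, among them Alas2, Slc25a37, Abcb10, Slc4a1, Rhag, Rhd, Epb42, Ermap, Kel, Hemgn, Tspo2 and Trim58. Their summed level was 662, 2287 and 1381 FPKM in the leukemic samples and 321, 57.3, 45.8 and 44.6 FPKM in the preleukemic samples. Each of the 14 genes, like each of the 4 adult globins, was highest in leukemic replicate 2, followed by leukemic 3, leukemic 1 and preleukemic 1. Adult globins stood 6.90, 10.4 and 8.04 times above this sum in leukemic replicates 1 to 3 and 7.05, 3.04, 4.39 and 5.13 times in preleukemic replicates 1 to 4. The leukemic ratio was 1.78 times the preleukemic one (exact permutation test, p = 0.0857, adjusted 0.143), with preleukemic replicate 1 inside the leukemic range.

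The direction of this ratio changed when the mitoferrin gene Slc25a37 was left out, which imports iron into mitochondria. It was at 39.1, 31.5 and 28.9 FPKM in preleukemic replicates 2 to 4 and there held 68.3%, 68.9% and 64.7% of the 14-gene sum, against 8.92% to 10.7% in the leukemic samples. With 12 genes, leaving out Slc25a37 and the mitochondrial transporter gene Abcb10, a choice made after the data were seen, adult globins stood 7.96, 11.7 and 9.26 times above the sum in leukemic samples and 9.01, 11.2, 18.3 and 18.0 times in preleukemic samples. The log2 difference was then -0.51 (exact permutation test, p = 0.257), and it was -0.30 with Slc25a37 alone left out (exact permutation test, p = 0.286). With all genes of heme and iron supply and of the red cell surface and skeleton as denominator it was 2.21 (exact permutation test, p = 0.0571). The direction of the difference thus depended on the choice of genes.

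**Figure D3:**
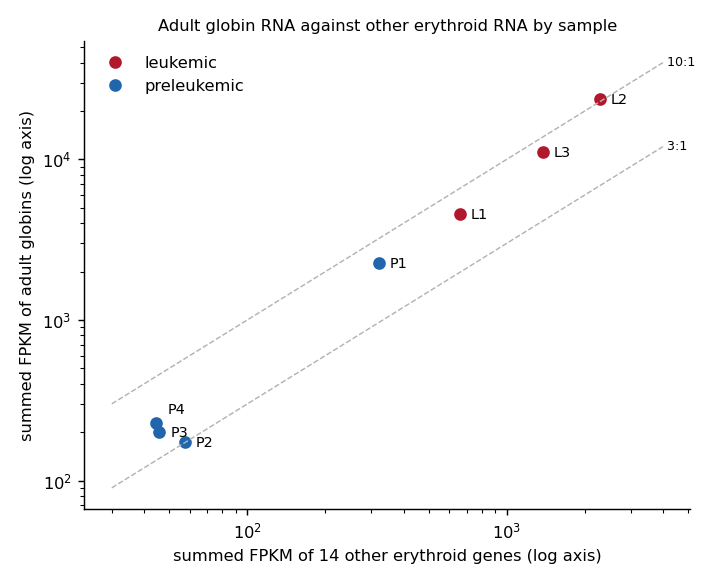
Summed FPKM of the adult globins (vertical, log axis) against summed FPKM of the 14 other erythroid genes (horizontal, log axis), with 1 point per sample, leukemic in red and preleukemic in blue; dashed lines mark ratios of 3 to 1 and 10 to 1. P1 lies next to L1, at 2260 FPKM of adult globins and 321 FPKM of the other genes, apart from the other preleukemic samples.

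Gene by gene, the ratio to Alas2 was the steadiest of the 14. Alas2 encodes the red cell form of the first enzyme of heme synthesis, and the adult globin sum was 43.0, 51.2 and 48.7 times its level in the leukemic samples and 53.3, 59.6, 71.4 and 53.3 times in the preleukemic samples, a range of 1.66-fold. The ratio to Hemgn, a nuclear protein gene of red cell precursors, ranged 2.09-fold. The ratio to Slc4a1, the anion exchanger band 3, was 26.2, 39.8 and 30.4 in the leukemic samples and 29.9, 38.7, 79.4 and 84.3 in the preleukemic samples, so that preleukemic replicates 3 and 4 held more globin per Slc4a1 than the other samples. The ratio to Slc25a37 ranged 26.2-fold. Among the 14 ratios, 0 passed the exact permutation test after adjustment (lowest adjusted p = 0.300), and the smallest unadjusted p was 0.0571. The smallest p that 35 labelings allow is 0.0286, so 1 ratio alone could not pass after adjustment over 14.

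The genes with the profile most like that of the adult globins were sought among all genes tested, by the root mean square difference of log2(FPKM + 1) over the 7 samples from the mean of the 4 members, each profile centred on its own mean. Alas2 was nearest (0.17), and the 5 nearest also held the Rhesus antigen gene Rhd (0.35), Tmcc2 (0.36) and the water channel gene Aqp1 (0.37). The members' own differences from their mean were 0.18 for Hbb-b1, 0.28 for Hba-a1, 0.35 for Hbb-bt and 0.76 for Hba-a2, and the median over all other genes was 2.80. Alas2 was thus nearer to the mean of the members than each member was. It was at 106, 464 and 228 FPKM in the leukemic samples and at 42.4, 2.92, 2.82 and 4.29 FPKM in the preleukemic samples, with a log2 fold change of 4.88. The fold changes of Rhd (4.75), Tmcc2 (4.43) and Aqp1 (4.93) were of the same size, which the choice by likeness fixes, and they are given with no test.

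Regulators of the globin genes moved in part. Of 18 transcription and translation regulators, all tested, 10 rose and 2 fell, and the list's median log2 fold change was 1.34, beside -0.02 over every gene tested. Gata1, Tal1, Klf1 and Nfe2, which bind the globin enhancers and promoters, were chosen for values after these were seen. Klf1, which binds CACCC motifs, was at 23.8, 78.8 and 48.1 FPKM in the leukemic samples and at 15.4, 0.771, 0.544 and 0.441 FPKM in the preleukemic samples, and rose by 4.02 ± 0.89 (SE, adjusted p = 0.0284). Gata1 rose by 3.55 ± 0.71 (adjusted p = 0.0224), Tal1 by 3.55 ± 0.63 (adjusted p = 0.0172) and Nfe2 by 2.64 ± 0.52 (adjusted p = 0.0216). Gata1 passed the filter only through its leukemic values. In all 4 the order of samples again put preleukemic replicate 1 between the leukemic samples and the other preleukemic samples. All 4 lost their calls without preleukemic replicate 2, 3 or 4, when 3, 2 and 3 of the 18 regulators rose and 0 fell. Klf1 also missed the threshold without leukemic replicate 2 or 3 (adjusted p of 0.0599 and 0.0615) and Nfe2 without leukemic replicate 3 (adjusted p = 0.0507).

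None of the 3 most abundant regulators, Myb, Ldb1 and Bcl11a, passed the test as higher. Myb, which keeps progenitors of several blood lineages immature, was at 142, 165 and 189 FPKM in the leukemic and at 204, 253, 231 and 220 FPKM in the preleukemic samples (log2 fold change -0.46, adjusted p = 0.0412), a call that was lost under 9 of 16 alternatives, among them each sample left out other than leukemic replicate 3. Bach1, a heme-sensing repressor of globin genes, fell by 0.49 on the log2 scale (adjusted p = 0.0232). Bcl11a, a repressor of embryonic globin genes that B cells also use, was at 121.7, 74.7 and 100.2 FPKM in the leukemic and at 93.0 to 109 FPKM in the preleukemic samples (log2 fold change -0.07, adjusted p = 0.797). Ldb1, which joins Gata1 and Tal1 at the enhancers, gave -0.04 (adjusted p = 0.854). Eif2ak1, the heme-regulated kinase that restrains globin translation, rose by 0.88 ± 0.20 (adjusted p = 0.0313). Bach1 and Eif2ak1 lost their calls without preleukemic replicate 2, 3 or 4, and Eif2ak1 also without leukemic replicate 3 or preleukemic replicate 1.

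**Figure D4:**
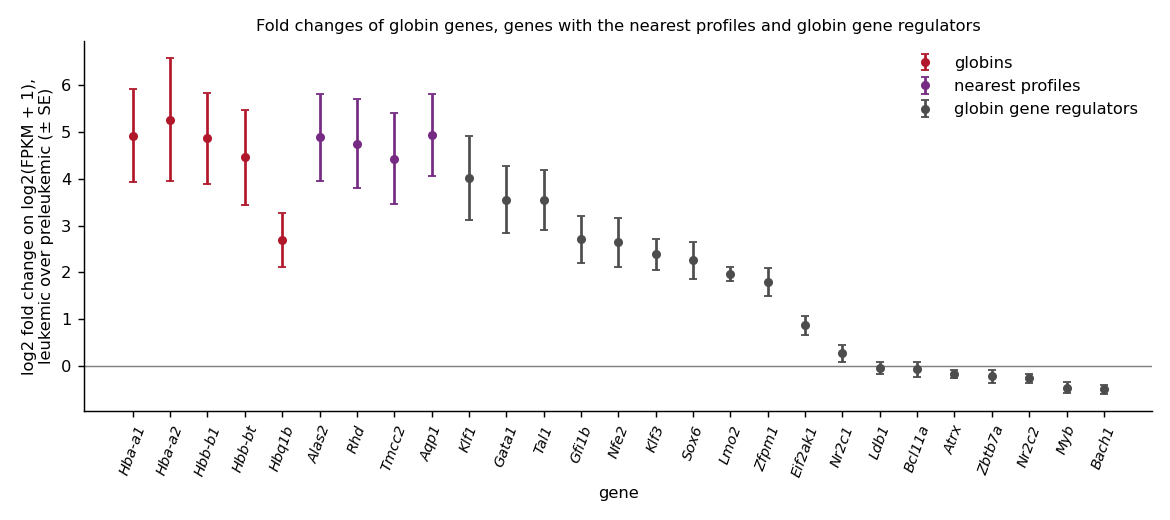
Log2 fold change of leukemic over preleukemic samples on log2(FPKM + 1), with its SE, for the tested globins (red), 4 of the 5 genes with the nearest profiles (purple) and the 18 regulators of globin genes (grey). The adult globins lie between 4.46 and 5.26, and the regulators run from 4.02 for Klf1 to -0.49 for Bach1.

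Genes of heme and iron supply rose alongside, mostly by less. Of 14 tested, 11 rose and 0 fell, with a median log2 fold change of 1.39. After Alas2, the largest rise was that of Fech, which inserts iron into the finished ring and was chosen after its values were seen (2.77 ± 0.52, adjusted p = 0.0191). Slc25a37 rose by 1.73 (adjusted p = 0.0287). Without preleukemic replicate 2, 1 of the 14 rose, without preleukemic replicate 3 or 4, 0 rose, and without leukemic replicate 3, 6 rose.

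Of 10 genes for redox defence and oxygen handling in red cells, 7 rose and 0 fell, with a median of 1.25. Gpx1, a peroxide-reducing enzyme, was at 693, 1287 and 974 FPKM in the leukemic and at 258 to 328 FPKM in the preleukemic samples (1.73 ± 0.20, adjusted p = 0.00812). Prdx2, a peroxiredoxin abundant in red cells, rose by 1.06 (adjusted p = 0.0243), and Car2, a carbonic anhydrase, by 1.45 (adjusted p = 0.0172). Bpgm, which makes the ligand that lowers the oxygen affinity of hemoglobin and was chosen after its values were seen, rose by 2.24 ± 0.43 (adjusted p = 0.0207). Without preleukemic replicate 2, 3 or 4, the number that rose was 3, 2 and 2, with Gpx1 among them each time.

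Genes of the red cell surface and membrane skeleton followed the globins. All 19 were tested and 19 rose, with a median log2 fold change of 3.93. Several of them, such as Tspo2 and Trim58, passed the filter only through their leukemic values. The summed level of the 19 was 705, 2177 and 1362 FPKM in leukemic and 310, 43.8, 40.2 and 40.5 FPKM in preleukemic samples. Slc4a1, the most abundant, was at 175, 597 and 365 FPKM and at 75.6, 4.49, 2.53 and 2.71 FPKM, and rose by 5.29 ± 1.09 (adjusted p = 0.0239). Without preleukemic replicate 1, 19 rose as well, but without preleukemic replicate 2, 3 or 4 the number was 2, 1 and 0, and without leukemic replicate 3 it was 13.

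Markers of other cell types that a spleen sample could hold were compared in the same way. Of 12 macrophage genes tested, 8 rose and 0 fell, with summed levels of 172 to 398 FPKM in leukemic and 40.6 to 93.8 FPKM in preleukemic samples. Of 12 neutrophil genes, 6 rose and 0 fell (1466 to 1824 against 154 to 894 FPKM), and of 5 platelet and megakaryocyte genes, 4 rose and 0 fell (17.2 to 60.8 against 3.79 to 4.85 FPKM). These 4, from a list of 11, passed the filter only through their leukemic values, so a rise was favoured in advance. The same holds for some of the called macrophage and neutrophil genes. Of 9 T and NK cell genes, 0 passed (17.0 to 98.8 against 22.0 to 31.4 FPKM), and of 5 plasma cell genes, 1 rose (485 to 1001 against 831 to 1066 FPKM). These counts also rested on single samples. Without leukemic replicates 1, 2 and 3 in turn, 12, 6 and 3 macrophage genes rose, and without preleukemic replicates 1 to 4 in turn, 2, 1, 1 and 1. For neutrophil genes the count was 1 with any leukemic sample left out, 10 without preleukemic replicate 1, and 0 without preleukemic replicate 2, 3 or 4. Platelet genes gave 2 without leukemic replicate 3 and 2, 1 and 1 without preleukemic replicates 2, 3 and 4, and 3 T and NK cell genes rose without leukemic replicate 1. The neutrophil sum was highest in leukemic replicate 3 and lowest of its group in leukemic replicate 2, unlike the globins. In leukemic replicates 1 to 3 the macrophage sum was 172, 398 and 271 FPKM and the platelet sum 17.2, 60.8 and 34.7 FPKM. The T and NK cell sum was 17.0, 98.8 and 85.6 FPKM. These sums had the order of the globins, as did the plasma cell and B-cell precursor sums. Most of the plasma cell sum came from 1 gene that was not called (277 to 778 FPKM in leukemic and 686 to 916 FPKM in preleukemic samples). The defining genes of the macrophage, neutrophil and platelet lists, such as Csf1r, S100a8 and Pf4, were above the lowest value in the leukemic samples. Csf1r and S100a8 were above it in every preleukemic sample too, and Pf4 in all but preleukemic replicate 4. Preleukemic replicate 1, which held the most globin RNA of its group, also had the highest macrophage, neutrophil and platelet sums of the group and the lowest B-cell precursor sum. Lyz2 alone gave 70.1 of the 93.8 FPKM of its macrophage sum. The other macrophage genes went both ways against preleukemic replicate 2, with Csf1r lower (1.37 against 2.03 FPKM) and Vcam1 higher (2.16 against 1.84 FPKM). The part of these other cells in the globin values was not tested.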

How the data were processed

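Total RNA of sorted BCP cells (3 leukemic and 4 preleukemic samples) was made by the authors into stranded mRNA libraries. They deposited FPKM values, already scaled for transcript length and depth, in 1 table with no value below 0.01. Per the labels, their processing used STAR 2.5.0b, bedtools 2.17.0, Cufflinks 2.2.1, Bowtie and DESeq2 on mm10, without a stated role for each. FPKM are not counts, so the authors' count model was replaced by limma 3.58.1 in R 4.3.3 on log2(FPKM + 1) with an intensity trend, no covariates, a sum of at least 10 FPKM as filter and Benjamini-Hochberg adjustment over all 10541 genes tested. A gene was called at an adjusted p under 0.05. A gene low in 1 group could pass the filter through the other group alone, which favours a call in that direction. The list counts include such genes. A pseudocount of 1 understates the change of low genes.

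Ratios within samples were compared by exact permutation tests in Python 3.11.15 (numpy 2.4.6, pandas 2.3.3, scipy 1.17.1), and figures drawn with matplotlib 3.10.9. The planned ratios with Hbb-b2 and Ahsp were not computed, which left 5 ratios and shares.

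Depth came from the low values of single-transcript genes (237 to 323 values per sample), of which 76.3% to 80.6% were within 0.1 of a whole fragment. Chance gives 20% at a fixed depth. Here depth and a length offset were chosen per sample to make this share largest, so the level by chance is above 20%. With so many values off a whole number, no count test was run. Any 2 samples had an equal value above 0.01 for at most 1 gene, so all 7 were taken as separate libraries, and 27 gene names that had turned into dates were kept as listed.

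Genes were named by rule: every listed member and globin relative, the 3 most abundant tested genes of each list, the 14 red cell genes of the ratio and the 5 genes with the nearest profiles; 3 genes of this rule are not reported here, though they stay in counts and sums; others are marked as chosen after their values were seen. The members, lists and tests were chosen with earlier results of these data known. Promoters are from RefSeq (GRCm38.p6) and transcripts from GENCODE M21. The limma script was tested on simulated data. Alternatives were other pseudocounts (0.1 and 0.01), filters, scalings, a replicate block, other denominators and leaving out each sample.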

Additional observations from a re-analysis of the deposited data

Results flagged for a closer look

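Preleukemic replicate 1 stood apart from the other preleukemic samples in globin RNA. Its gap to the nearest of the others, as a share of the whole range of the group, was 0.871 for Hba-a1, 0.894 for Hbb-b1 and 0.849 for Hbb-bt on log2(FPKM + 1), and 0.978 for the members' share of all FPKM, each above Dixon's 95% critical value for 4 samples. For Hba-a2 the gap was 0.487, below that value. These 4 measures share their RNA and are not separate observations. Chance alone marks about 1 in 20 groups.

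The ratio of Hba-a2 to Hba-a1 in preleukemic replicate 3 (0.000913) gave a gap of 0.944 on the log2 scale. The summed alpha level of that sample, 38.3 FPKM, lay between those of preleukemic replicates 2 (32.3 FPKM) and 4 (41.9 FPKM).

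Hba-x in preleukemic replicate 2 gave a gap of 1.0, because the other 3 preleukemic samples were at the lowest value and this sample held about 1 fragment.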

How the results depend on the processing

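The rise of the 4 adult globins kept its direction under all 16 alternatives, with log2 fold changes of 4.37 to 5.81 for Hba-a1, 4.27 to 6.49 for Hba-a2, 4.20 to 5.72 for Hbb-b1 and 3.83 to 5.35 for Hbb-bt. The calls were less stable, and where no cause is named it was not tested. Without a filter on low values, which raised the number of genes tested to 24341, 706 genes and 0 of the 4 globins were called (adjusted p 0.0817 to 0.127). Requiring a sum of 70 FPKM gave 951 genes, rescaling each sample to 1000000 gave 2917 (686 of them higher, against 893 of 1553 as deposited) and rescaling without the members gave 2565. Rescaling moved the median of all genes from -0.02 to -0.18, or to -0.15 without the members. Leaving out 1 sample gave 149 to 1620 genes and 0 to 4 globins. The list counts without 1 sample stand beside this range over all genes. Hba-a2 also missed the threshold with a pseudocount of 0.1 (adjusted p = 0.0700) or 0.01 (adjusted p = 0.0903).

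The replicate numbers are shared between the groups, but samples with the same number did not deviate together (correlations over genes of 0.03, 0.05 and -0.09), so they were not taken as pairs. With a replicate block, limma called 0 genes (2429 at an unadjusted p under 0.05) and 0 of the 4 globins, whose log2 fold changes were 4.20 to 5.31 (adjusted p 0.149 to 0.175). Preleukemic replicate 4 has no partner and drops out of that estimate. The members' share then differed by 2.31 points (exact p = 0.25).

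The members' share differed by 2.14 points by medians (exact permutation p = 0.0571), by 4.69 on the log2 scale (p = 0.0571) and by 1.39 to 3.14 points without 1 sample. Hba-a2 to Hba-a1 turned to -0.14 by medians and ran from -0.32 to 2.35 without 1 sample. Adult globins to other red cell genes turned to -0.51 with 12 genes and to -0.30 with 13, and came to 2.21 with all genes of heme, iron, surface and skeleton. Gpx1, Lmo2, Klf3, Car1 and the macrophage and platelet genes are left aside here. The other called genes named from the lists lost their calls without preleukemic replicate 2, 3 or 4, without a filter and with the block. Without a filter, 1 macrophage gene and 2 platelet genes stayed called. Adult alpha to adult beta and Hbb-bt to Hbb-b1 kept their direction under all 10 alternatives run and stayed above the threshold. Without 1 sample, Bcl11a ran from -0.23 to 0.12 and Ldb1 from -0.17 to 0.061, all above the threshold, and Ldb1 was at 0.013 without preleukemic replicate 2.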

Other observations

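Not every gene that rose in the lists of globin regulators and of red cell oxygen handling followed the globins from sample to sample. The genes here were chosen after their values were seen. Lmo2, a partner of Gata1 and Tal1 at the globin enhancers, was at 89.5, 87.0 and 95.8 FPKM in leukemic replicates 1 to 3 and at 29.1, 23.9, 20.2 and 18.1 FPKM in preleukemic replicates 1 to 4. Its leukemic samples were close to each other, where the adult globins ranged 5.20-fold in sum, and it rose by 1.97 ± 0.16 (SE, adjusted p = 0.00426). Klf3, a CACCC-binding relative of Klf1, was at 16.0, 23.2 and 23.2 FPKM against 5.29, 4.38, 1.505 and 2.40 FPKM and rose by 2.38 ± 0.33 (SE, adjusted p = 0.0109).

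Car1, a carbonic anhydrase of red cells, was at 114, 115 and 204 FPKM in the leukemic samples and at 10.5, 1.31, 1.83 and 0.523 FPKM in the preleukemic samples. It was highest in leukemic replicate 3, not in replicate 2 as the globins were, and its log2 fold change was 5.42 (adjusted p = 0.00819). Lmo2, Klf3 and Car1 lost their calls under a replicate block only, among the alternatives run. Whether these genes and the globins came from the same cells was not tested.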
